A study of Mus musculus with 10 samples.

Results

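Vascular smooth muscle cells of the mouse medial prefrontal cortex were described from 10 single-cell RNA libraries, 5 from socially dominant and 5 from subordinate mice. The cells were chosen by their own transcript counts, not by a deposited annotation. A barcode had to show 500 or more genes, with no more than 15% of its UMIs (unique molecular identifiers, 1 count per captured RNA molecule) from mitochondrial genes. It was taken as a smooth muscle cell with at least 8 UMIs of Acta2, Tagln, Myh11 and Myl9 together, of which at least 3 came from Acta2 and Tagln. At most 1 UMI each was allowed for an endothelial pair (Cldn5, Flt1), a pericyte pair (Kcnj8, Atp13a5) and a neuronal and glial set (Slc17a7, Gad1, Gad2, Gja1, Mog, Cx3cr1). This gave 455 cells of 48816 kept barcodes, or 0.932%, with 211 from dominant and 244 from subordinate mice.

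All animals were male C57BL/6N mice over 2 months old, with no transgene or drug named in the labels. They were ranked by the tube test, in which mice push each other out of a narrow tube, and rank1 denotes the dominant and rank4 the subordinate animals. Each library pooled tissue punches of 2 to 3 mice taken 1 day after the last test, and papain digestion at 37 °C for 60 min preceded droplet capture. The library was therefore the replicate, and p-values measure the spread between pools.

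Vascular smooth muscle cells wrap arteries and arterioles and set their diameter. Calcium entering through channels or released from stores activates myosin light chain kinase, and the phosphorylated myosin pulls on smooth muscle actin, whereas nitric oxide acting through cyclic GMP relaxes the cell. In the brain they stand beside pericytes, the mural cells of capillaries, and adjust blood flow to neuronal activity. The contractile genes are classically switched on by serum response factor with its coactivator myocardin at CArG boxes near their promoters.

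The promoter windows below are shown because the contractile genes that define these cells are the textbook targets of that DNA element. In the RefSeq promoter table (GRCm38.p6, 250 bases before to 50 after each start) 20 of 23 contractile genes had an entry, and Tagln, Myh11 and Actg2 were not matched. The strict CArG box, which reads the same way on both strands, was in 3 of the 24 promoters of these genes (12.5%; those of Myl9, Myl6 and Vcl) and in 1.63% of all 32851 promoters. A form with 1 C or G among its inner A and T bases, searched on both strands, was in 4 of the 24 (16.7%; Acta2, Myl9, Pdlim3 and Crip1) and in 8.5% of all. The capitals mark the box, and a match describes the letters and not a bound site. The Acta2 boxes began 84 and 34 bases before the RefSeq start on the minus strand (chr19:34255438-34255467 and chr19:34255388-34255417), and both windows lie over an annotated Acta2 exon in GENCODE M21, whose gene model starts further upstream. The Myl9 boxes began 161 and 99 bases before the start on the plus strand (chr2:156775278-156775337 for the strict and chr2:156775340-156775399 for the other form), and the Vcl box 227 bases before it on the plus strand (chr14:20929148-20929205).
Acta2 distal box: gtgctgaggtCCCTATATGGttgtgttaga
Acta2 proximal box: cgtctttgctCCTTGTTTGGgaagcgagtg
Myl9 strict box: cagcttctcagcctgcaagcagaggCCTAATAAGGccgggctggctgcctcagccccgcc
Myl9 second box: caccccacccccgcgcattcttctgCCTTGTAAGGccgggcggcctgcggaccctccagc
Vcl strict box: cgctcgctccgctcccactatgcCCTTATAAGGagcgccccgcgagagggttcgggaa

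The 10 libraries held between 4442750 and 29278466 UMIs over 1838 to 15826 deposited barcodes. The chosen cells had a median of 1774 UMIs and 1008 genes. The 4 genes of the rule summed to 8 to 193 UMIs per cell (median 46), a median of 2.52% of a cell's UMIs. At the edge of the rule, 14 cells with sums of 8 to 10 UMIs lay just inside, of which 6 had a UMI of Tpm2, and 13 barcodes with sums of 5 to 7 lay just outside, of which 10 had one. In all, 564 kept barcodes met the smooth muscle thresholds, and 109 of them were removed by the limits on other cell types (48 by the endothelial, 21 by the pericyte and 62 by the neuronal and glial limit, with overlaps). No chosen cell had over 3 times the median UMI total of its library's smooth muscle cells.

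Smooth muscle cells were very unevenly spread over the libraries. Rank1 replicates 1 to 5 gave 15, 131, 41, 4 and 20 cells, and rank4 replicates 1 to 5 gave 4, 64, 109, 24 and 43. Replicates 2 and 3 of the 2 ranks together held 345 of the 455 cells (75.8%). As a share of kept barcodes the rank1 libraries held 0.305%, 6.66%, 2.80%, 0.198% and 0.255%, and the rank4 libraries 0.0814%, 3.68%, 2.90%, 0.373% and 0.313%. Every library of replicates 2 and 3 lay above every library of replicates 1, 4 and 5 in both ranks. Wilson 95% intervals, which cover counting error only, ran from 5.64% to 7.85% in rank1 replicate 2 and from 2.89% to 4.67% in rank4 replicate 2.

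**Figure D1:**
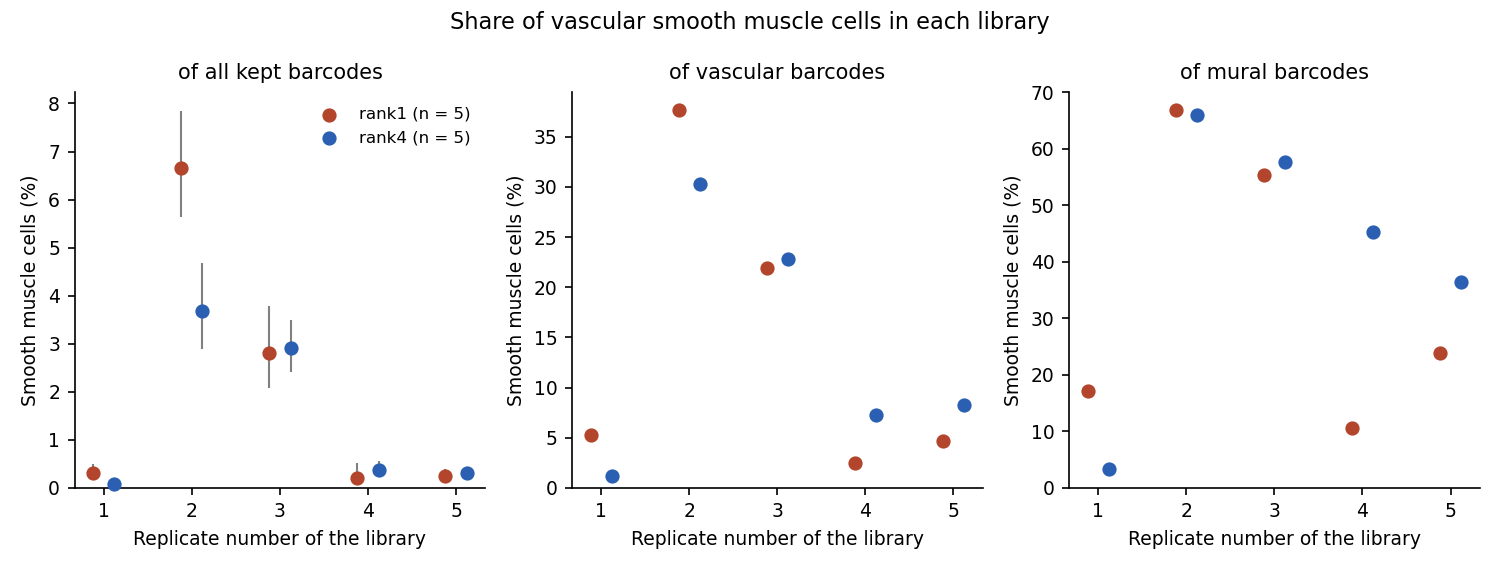
Vertical axes give smooth muscle cells as a percent of all kept barcodes (left, bars are Wilson 95% intervals), of smooth muscle, pericyte and endothelial barcodes (middle) and of smooth muscle and pericyte barcodes (right); horizontal axes give the library's replicate number, with red for rank1 and blue for rank4 (n = 5 each). The libraries of replicates 2 and 3 stand highest in all 3 panels in both ranks.

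The share did not separate the ranks. Among kept barcodes it was 2.04% ± 2.81 in rank1 and 1.47% ± 1.69 in rank4 (mean ± SD, n = 5 each), a difference of 0.574 percentage points with a two-sided exact permutation p of 0.770 (0.960 after Benjamini-Hochberg adjustment over 3 share tests; the smallest p this design allows is 0.00794). Without rank1 replicate 2 the difference was -0.580 points. Among vascular barcodes (the smooth muscle cells, 599 pericytes and 2241 endothelial cells gated in the same way) the share was 14.4% ± 15.1 in rank1 and 14.0% ± 12.1 in rank4, with an exact permutation p of 0.960 (adjusted 0.960). Among mural barcodes it was 34.7% ± 24.9 and 41.8% ± 24.2, with an exact permutation p of 0.635 (adjusted 0.960). Rank1 was the higher of the same-numbered pair in 2 of 5 pairs for each of these shares.

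The cells carried the markers of their label. Acta2 encodes smooth muscle alpha actin and lies on chromosome 19 from 34241090 to 34255590 (GRCm38, minus strand). After each cell was thinned to 800 UMIs, Acta2 was found in 99.3% of the smooth muscle cells (454 of 455 cells deep enough) and in 0.544% of pericytes, 0.514% of endothelial cells and 0.648% of excitatory neurons. What these low shares come from was not tested. Since Acta2 was part of the rule, its high share is a description. Median depths before thinning were 1774 UMIs in smooth muscle cells, 1174 in pericytes, 1625 in endothelial cells and 4576 in excitatory neurons.

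Tpm2, the beta tropomyosin that lines the actin filament (chromosome 4 from 43514711 to 43523765), was not used by the rule. It had a UMI in 72.5% of thinned smooth muscle cells (90.3% of all 455 cells without thinning), against 7.44% of pericytes and 0.187% of endothelial cells. Its level, in CPM (UMIs of the gene per 1000000 UMIs of the summed cells), was 1984, 2513 and 5328 in rank1 replicates 2, 3 and 5, and 2117, 1766, 4604 and 4257 in rank4 replicates 2, 3, 4 and 5. Replicates 2 and 3 were low and replicates 4 and 5 high in both ranks.

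Other smooth muscle genes were each caught in a part of the cells at this depth. Desmin (Des), the muscle intermediate filament, was in 33.9% of thinned smooth muscle cells, phospholamban (Pln), the brake on the calcium pump of the sarcoplasmic reticulum, in 38.5%, and calponin (Cnn1), an actin-binding regulator, in 21.6%. Elastin (Eln), the elastic fibre protein of large arteries, was in 2.20%, and Kcnmb1, the beta subunit of the large-conductance potassium channel, in 6.61%, against 5.08% of pericytes. The L-type calcium channel gene Cacna1c was in 3.96% of smooth muscle cells, 3.45% of pericytes, 0.702% of endothelial cells and 5.26% of excitatory neurons. The pericyte channel subunit Abcc9 was in 0.441% of smooth muscle cells and 33.4% of pericytes. Rgs5, a regulator of G protein signalling in mural cells, was in 60.1% of smooth muscle cells and 89.5% of pericytes, and Notch3, the mural Notch receptor, in 26.4% and 21.1%.

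**Figure D2:**
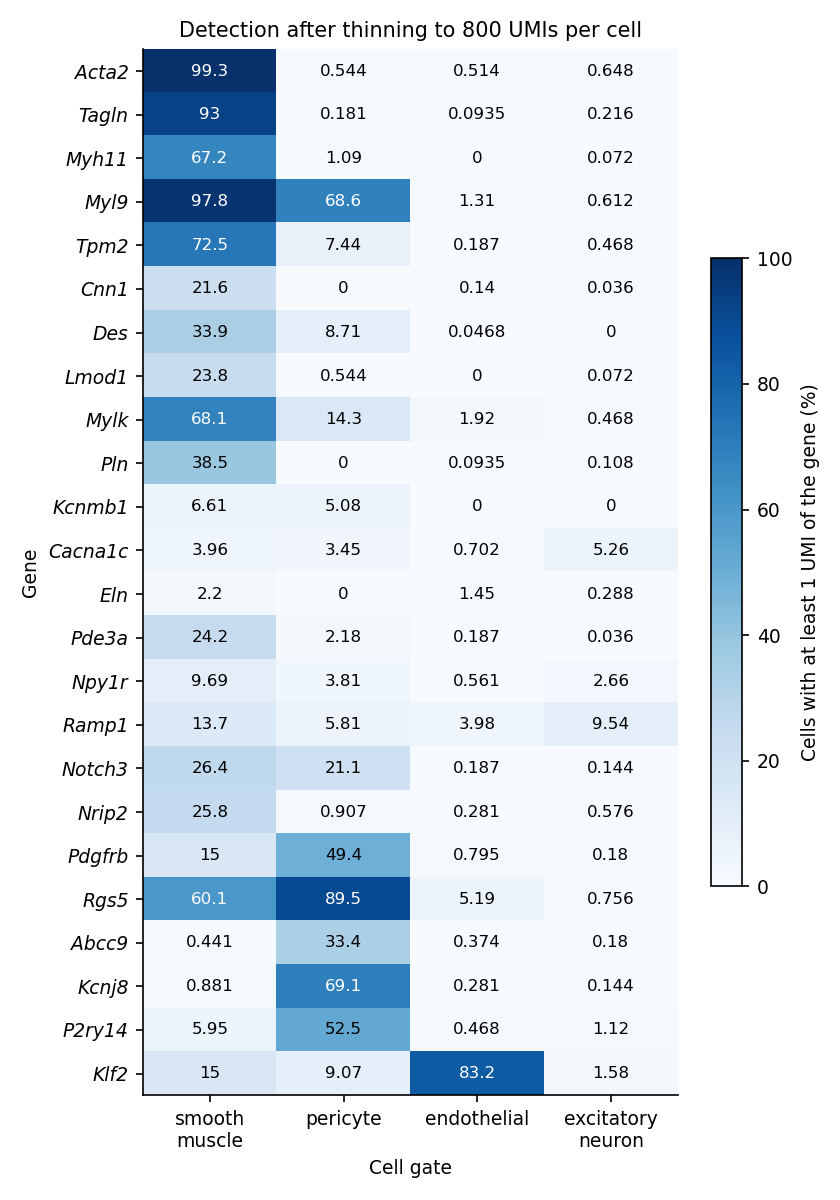
Each cell of the grid gives the percent of cells with at least 1 UMI of the gene (rows) in 4 gates (columns), after each cell was thinned to 800 UMIs; darker blue is a higher percent. Acta2, Tagln, Myh11, Myl9 and Kcnj8 were used to choose cells, while Tpm2, Des, Lmod1, Mylk, Pln and Pde3a were not and are highest in smooth muscle cells.

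Transcripts of other cell types were present at widely different levels. Over the 7 libraries with at least 20 smooth muscle cells, the 5 smooth muscle markers summed to 25441 to 36168 CPM in smooth muscle cells and to 949 to 3523 in pericytes. All 10 pericyte markers were detected, summing to 3555 to 5480 CPM in rank1 and 5082 to 8372 in rank4 smooth muscle cells, against 24366 to 37129 in pericytes. The 9 endothelial markers summed to 94.8 to 108 in rank1 and 110 to 206 in rank4, and the 8 fibroblast markers to 86.6 to 142 and 183 to 364. The 5 erythroid genes ran from 142 to 7626, with the highest sums in rank1 replicate 2 (7626) and rank4 replicate 5 (3786). The 8 neuronal markers summed to 447 to 3298, and the macrophage genes Mrc1 and Pf4 were at 0. Acta2, Tagln, Myh11 and Myl9 among the smooth muscle markers were rule genes. Kcnj8, Atp13a5, Vtn and Higd1b among the pericyte markers were used to choose the pericytes. The contrasts between smooth muscle cells and pericytes were therefore set in part by the choice of cells.

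Within the smooth muscle cells, further contractile genes had higher levels where the rule genes took a larger share, and Rgs5 and other genes of mural cells had lower ones. Cells of each of the 7 libraries were ordered by the share of their UMIs from the 4 rule genes and divided into a lowest (141 cells, median share 1.52%), a middle (144, 2.49%) and a highest (147, 3.47%) tertile. These values are a description with no test, and apart from Cnn1, Pln, Tpm2 and Rgs5 the genes named were chosen after their values were seen. Cnn1 stood at 140, 311 and 828 CPM from the lowest to the highest tertile, Pln at 446, 710 and 986, and Tpm2 at 1447, 2195 and 3604. All of these were higher in the highest than in the lowest tertile in 7 of 7 libraries.

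The same order held for the LIM protein gene Csrp1, for the kinase gene Mylk and for Lmod1, the actin filament nucleator, again in 7 of 7 libraries. Outside the contractile list, the growth factor Tgfb3 went from 201 to 568 CPM, the matrix protein thrombospondin 1 (Thbs1) from 118 to 322, the feedback inhibitor Errfi1 from 656 to 1434 and the neuropeptide Y receptor Npy1r from 91.8 to 188, each in 7 of 7 libraries. The focal adhesion gene Vcl showed no such order, at 219, 289 and 199.

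In the other direction, Rgs5 went from 5547 to 3049 and 1342 CPM, with the highest tertile above the lowest in 0 of 7 libraries. Vitronectin (Vtn), a secreted adhesion protein, went from 1810 to 222, Higd1b from 1027 to 394, Ndufa4l2 from 913 to 301 and the calcium store protein calsequestrin 2 (Casq2) from 192 to 58.2. For each of these, too, the highest tertile lay above the lowest in 0 of 7 libraries. Gucy1b1, a subunit of the nitric oxide receptor, went from 463 to 305 in the same way. Per cell, Rgs5 ranged from 0 to 78 UMIs with quartiles of 0, 2 and 8. The haemoglobin gene Hbb-bs stood at 4030 CPM in the lowest and 110 in the highest tertile, and a transcript that takes up UMIs lowers the share of the rule genes. The lowest tertile was also shallower, with a median of 1464 UMIs against 1994. Marker sums of several other cell types were also lower in the highest tertile: the 10 pericyte markers summed to 9826 CPM in the lowest and 2423 in the highest tertile (10 of 10 lower), the 8 neuronal markers to 1403 and 602 (6 of 8), the 6 astrocyte markers to 787 and 277 (6 of 6) and the 7 microglial markers to 490 and 157 (7 of 7). Endothelial (157 and 120), fibroblast (350 and 168) and oligodendrocyte sums (297 and 229) were lower as well, whereas those of oligodendrocyte precursors (197 and 219) and perivascular macrophages (0 and 13.7) were not. The part of haemoglobin, depth or RNA of these cell types in the gradient was not tested.

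**Figure D3:**
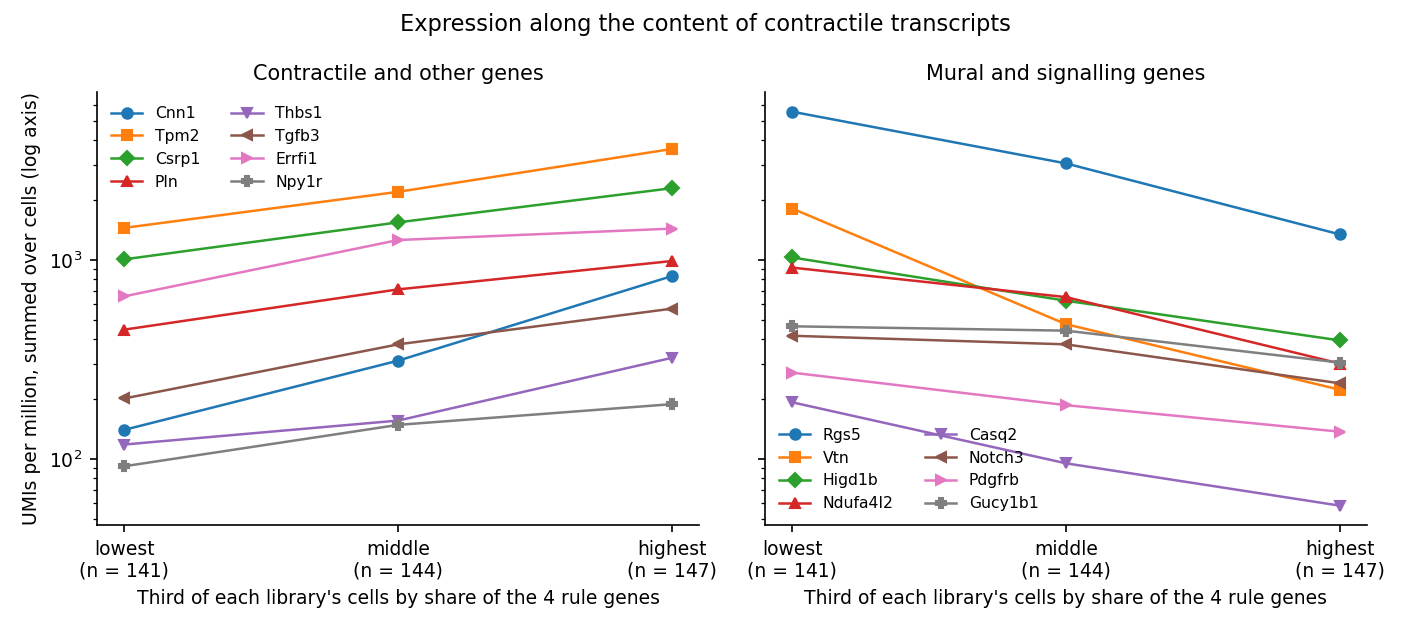
The vertical log axes give CPM of each gene, summed over the cells of each tertile; the horizontal axes order the tertiles by the share of the 4 rule genes in a cell's UMIs. Lines slope upward for Cnn1 (140 to 828) and the genes beside it on the left, and downward for Rgs5 (5547 to 1342) and the genes beside it on the right.

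Against pericytes of the same libraries, 12 of 13 tested contractile genes were higher in the smooth muscle cells, as was Pln, while Pdgfrb, P2ry14, Abcc9 and Ptn were lower. The cells of each gate were summed per library, and edgeR's quasi-likelihood test with the library as block and Benjamini-Hochberg adjustment was run on 1205 genes that neither gate had used. Of these, 297 (24.6%) were higher and 288 (23.9%) lower in smooth muscle cells. Both gates were set on expression, so genes that travel with the gate genes differ by construction, and the pericytes were the shallower cells in all 7 libraries. Genes nearly absent from either cell type, such as Lmod1, Pln, Nrip2 and Abcc9, passed the expression filter only through the other. Their calls are descriptions, also where the list counts below include them. The count of calls was 347 of 1205 without the block, 361 of 1126 within rank4 alone and 1229 of 14431 with no filter on low counts.

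Of the 23 contractile genes, 13 passed the expression filter and were not gate genes, and 12 of these were higher and 1 lower in smooth muscle cells (median log2 fold change 3.20, against -0.06 over all 1205 genes). Lmod1 averaged 394 ± 147 CPM in smooth muscle cells (SD, n = 7) and had 1 UMI in the pericytes of these 7 libraries, to which all UMI counts of this comparison refer, a 137-fold ratio of pooled levels with an exact 95% counting interval of 24.4 to 5436. Tpm2 was higher by 4.89 on the log2 scale (SE 0.22, edgeR adjusted p = 8.02e-13), Csrp1 by 4.88 (SE 0.30, adjusted p = 3.71e-11) and Crip1, a small LIM protein, by 4.65 (SE 0.18, adjusted p = 1.05e-13). Caldesmon (Cald1), which restrains actomyosin, was the exception at -0.44 (SE 0.11, adjusted p = 0.00304). Cnn1 and Pdlim3 did not enter the test and had 0 UMIs in pericytes, against 356 and 213 in smooth muscle cells. Set against a floor of 3 counts over the pericytes, these are at least 60.9-fold and 36.5-fold higher.

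Among 5 tested calcium genes, 3 were higher and none lower in smooth muscle cells, against 24.6% and 23.9% of all tested genes (median 1.38, the same with Pln at its bound). Pln is counted among these 3, although it passed the expression filter only through the smooth muscle cells. Pln, on chromosome 10 from 53337667 to 53345987, had levels of 736, 1079 and 671 CPM in rank1 replicates 2, 3 and 5, and of 858, 565, 704 and 628 in rank4 replicates 2 to 5. It had 0 UMIs in the pericytes of every one of these libraries and so was at least 98.8-fold higher against the floor of 3 counts over the group. Its target, the pump gene Atp2a2, was 1.46 higher on the log2 scale (SE 0.30, edgeR adjusted p = 0.000416; without the block 1.21, adjusted p = 0.0717), and the plasma membrane pump Atp2b4 1.38 higher (SE 0.26, adjusted p = 0.000222). The related pump Atp2b1 (0.19, SE 0.22, adjusted p = 0.502) and the store release channel Itpr1 (-0.13, SE 0.28, adjusted p = 0.745) did not pass. Cep85l and Gm47644 overlap Pln on the other strand.

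Of 7 tested genes of nitric oxide and cyclic nucleotide signalling, 2 were higher and 2 lower, close to the 24.6% and 23.9% over all tested genes. The phosphodiesterases Pde3a and Pde5a, which break down cyclic nucleotides, were higher by 3.22 (SE 0.36, edgeR adjusted p = 2.50e-07) and 1.14 (SE 0.23, adjusted p = 0.000355). Pde4d, which acts on cyclic AMP, was lower at -2.13 (SE 0.36, adjusted p = 5.71e-05), and Gucy1b1 was lower at -0.84 (SE 0.17, adjusted p = 0.000365; with no filter on low counts -0.46, adjusted p = 0.148).

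Receptors and channels were sparse. Of 32 vasoactive receptor genes 3 could be tested: Ramp1, the partner of the CGRP receptor, was higher by 2.02 (SE 0.39, edgeR adjusted p = 0.000276), P2ry14, a receptor for UDP sugars, was lower at -4.47 (SE 0.24, adjusted p = 5.16e-12), and S1pr3, a sphingosine phosphate receptor, did not pass (-0.27, SE 0.22, adjusted p = 0.322; without rank1 replicate 2 it was -0.54 and passed, adjusted p = 0.0482). Ramp1 could be fitted in 11 of the 15 alternative settings and passed in each. The endothelin receptor Ednra had 65 UMIs in the smooth muscle cells of the 7 libraries and the angiotensin receptor Agtr1a had 1. A further 6 receptor genes had none. Of 16 channel genes only Abcc9 was tested, with 3 UMIs in smooth muscle cells against 209 in pericytes, a 136-fold lower pooled level (exact 95% counting interval 45.8 to 663). The voltage-gated potassium channel gene Kcna5 had 71 UMIs in smooth muscle cells and 0 in pericytes, at least 12.2-fold higher.

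Of 4 tested Notch genes 1 was higher and 1 lower, shares near those over all tested genes (24.6% and 23.9%). Nrip2, a nuclear receptor interacting protein, was higher (252 UMIs against 3, a 43.1-fold pooled ratio with an exact 95% counting interval of 14.6 to 211) and Hes1, a Notch target repressor, lower (-0.68, SE 0.20, edgeR adjusted p = 0.00905). The call of Hes1 held in 9 of 15 alternatives and was lost with DESeq2 (-0.56, adjusted p = 0.0785), with no filter (-0.24, 0.787), without the block (-0.63, 0.290), within rank4 (-0.096, 0.801), without rank1 replicate 2 (-0.41, 0.145) and without rank1 replicate 3 (-0.53, 0.05001). Notch3 itself did not pass (0.20, SE 0.18, adjusted p = 0.393). Platelet-derived growth factor A (Pdgfa) was higher by 1.75 (SE 0.33, adjusted p = 0.000205) and its family's mural receptor Pdgfrb lower at -2.01 (SE 0.17, adjusted p = 3.15e-09). Myocardin (Myocd) had 24 UMIs in smooth muscle cells and 0 in pericytes, at least 4.11-fold higher, and was not tested. In the transcription regulator list 1 of 5 tested genes was higher, a share near the 24.6% of all tested genes; it was Klf4 (1.30, SE 0.28, adjusted p = 0.000620).

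Of 10 tested matrix and integrin genes, 3 were higher and 6 lower, against 24.6% and 23.9% of all tested genes. Biglycan (Bgn) was at -1.77 (SE 0.18, edgeR adjusted p = 9.97e-08), the laminin chain Lamc1 at -1.53 (SE 0.24, adjusted p = 3.20e-05) and the collagen chain Col4a1 at -0.98 (SE 0.20, adjusted p = 0.000488), while the laminin chain Lamb2 was higher by 1.2 (SE 0.23, adjusted p = 0.000272). The call of Col4a1 was lost with no filter (-0.63, adjusted p = 0.112), without the block (-1.17, 0.0599) and within rank1 (-0.56, 0.186). The laminin chain Lama5 had 88 UMIs in smooth muscle cells and 0 in pericytes. In the 14 genes of dedifferentiated or inflamed smooth muscle, none could be tested. Thbs1 (162 UMIs against 0 in pericytes) was the only one of them with at least 100 UMIs in smooth muscle cells, and Spp1 and Timp1 had 15 and 1.

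For stress and hormone-responsive genes the counts stand against the same 24.6% higher and 23.9% lower over all tested genes. Of 16 tested immediate early genes, 7 were higher and 2 lower (median 0.43); Fosl2 was higher by 2.30 (SE 0.26, edgeR adjusted p = 4.13e-07) and Jun lower at -1.31 (SE 0.23, adjusted p = 0.000105). Of 7 tested glucocorticoid-responsive genes, 4 were higher and 2 lower (median 1.66). Cdkn1a, the cell cycle inhibitor p21, was higher by 4.11 (SE 0.34, adjusted p = 3.15e-09) and Errfi1 by 3.57 (SE 0.24, adjusted p = 1.54e-10). Of 11 tested heat shock chaperones, 1 was higher and 4 lower, among them Hspa1a at -2.29 (SE 0.27, adjusted p = 5.92e-07); its near-identical copy Hspa1b makes the count of each uncertain.

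Outside these lists the largest differences upward were in Palld, the actin scaffold palladin (491 UMIs against 1), Sncg, gamma synuclein (645 against 2), Tinagl1, a basement membrane protein (539 against 3), Csrp2 (319 against 3), Map3k7cl (356 against 3) and Crispld2 (5.86 on the log2 scale, SE 0.36, edgeR adjusted p = 3.71e-11). Sncg averaged 857 ± 155 CPM (SD, n = 7) in smooth muscle cells. Downward, Ggt1, gamma-glutamyltransferase, had 0 UMIs in smooth muscle cells and 96 in pericytes, at least 62.3-fold lower against a floor of 3 counts over the smooth muscle cells. The creatine synthesis gene Gatm was at -5.00 (SE 0.31, adjusted p = 3.99e-11), the growth factor pleiotrophin (Ptn) at -5.23 (SE 0.28, adjusted p = 5.16e-12), and the transporter genes Slc22a8 and Slc6a20a at -5.66 (SE 0.41, adjusted p = 5.14e-10) and -4.69 (SE 0.25, adjusted p = 5.16e-12). G0s2, an inhibitor of fat breakdown, was at -4.86 (SE 0.38, adjusted p = 1.43e-09) and neurotensin (Nts) had 2 UMIs against 91.

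**Figure D4:**
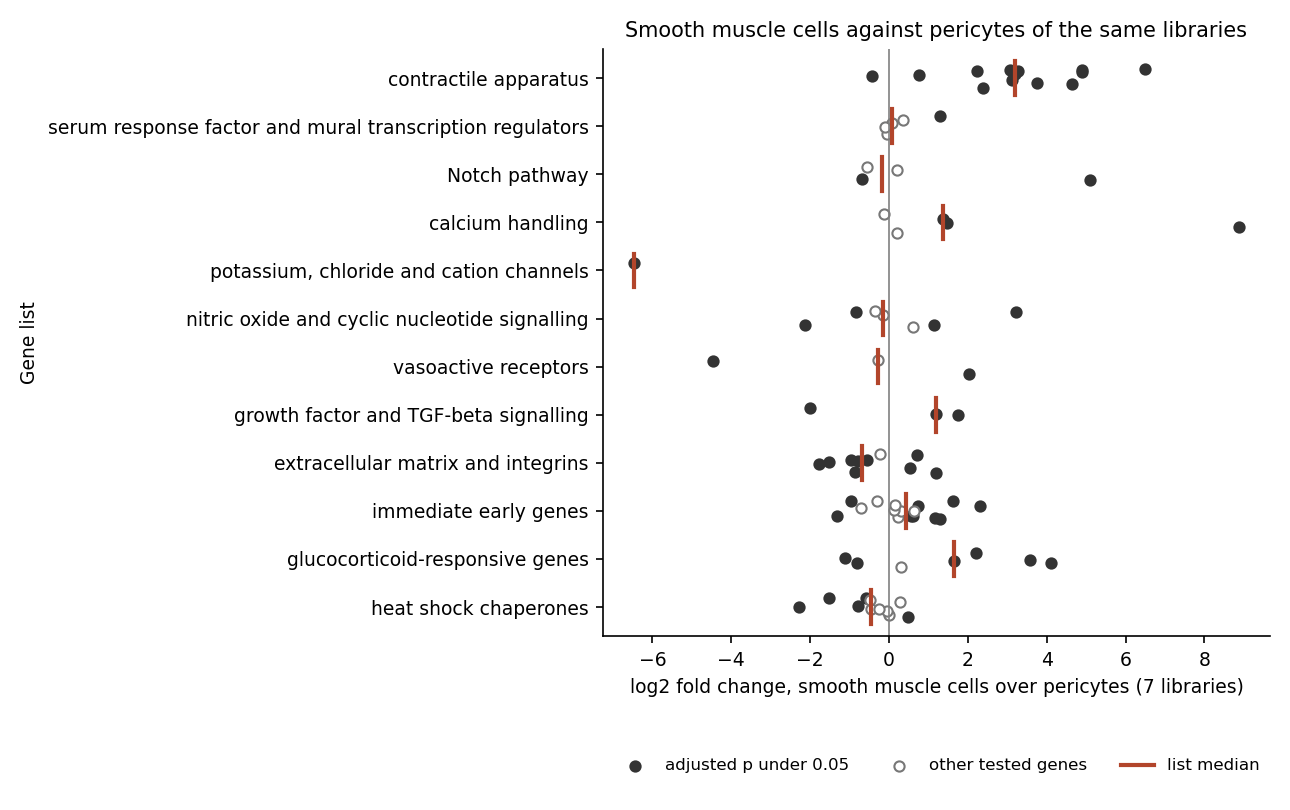
The horizontal axis gives the log2 fold change of smooth muscle cells over pericytes in 7 libraries for each tested gene of each list (rows); filled points passed an adjusted p of 0.05, open points did not, and red bars are list medians. The contractile list has a median of 3.20 with 12 filled points above 0, and the channel list holds only Abcc9.

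Between the ranks, 2 genes passed in smooth muscle cells, and both were higher in dominant mice. The 7 libraries with at least 20 cells entered (rank1 replicates 2, 3 and 5, and rank4 replicates 2 to 5), with the gene-list version of the matrix as a covariate, and rank1 replicates 1 and 4 and rank4 replicate 1 were left out for too few cells. Of 1594 genes tested with edgeR, 2 were higher in rank1 (0.125%) and 0 lower at an adjusted p of 0.05. At an unadjusted p of 0.05, 57 were higher (3.58%) and 38 lower (2.38%), or 5.96% in all, and DESeq2 called 1 gene higher and none lower.

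Cebpb encodes a leucine zipper transcription factor of acute-phase and stress responses. It is a single-exon gene (chromosome 2, 167688915 to 167690418) that Tmem189 overlaps on the other strand. It stood at 5184, 4659 and 1213 CPM in rank1 replicates 2, 3 and 5, and at 2154, 1896, 679 and 628 in rank4 replicates 2, 3, 4 and 5. The ranges of the ranks overlapped because replicate 5 was low in both, while rank1 was higher in each of the 3 same-numbered pairs. The log2 fold change was 1.18 (SE 0.17, edgeR adjusted p = 0.000421), and 1.23 with the replicate number as block (adjusted p = 5.44e-05), a fit that leaves out rank4 replicate 4, which has no partner. It passed in 16 of 19 alternatives, with adjusted p from 6.05e-09 to 0.998, including each of the 7 fits that left out a library. Against pericytes Cebpb was also higher in smooth muscle cells, by 2.00 (SE 0.18, edgeR adjusted p = 1.31e-08).

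The call of Cebpb was lost in 3 settings. Without the version covariate it was 1.43 (adjusted p = 0.998) and with libraries of 10 or more cells 0.77 (adjusted p = 0.997). Within replicates 4 and 5 alone it was 0.87, but rank1 replicate 5 was the only rank1 library there, too few to judge the call. The fit with libraries of 10 or more cells adds rank1 replicate 1, whose 15 cells held 3 UMIs of Cebpb, or 68.3 CPM, below every rank4 library of the fit. Of the other small libraries, rank1 replicate 4 held 5 UMIs in 4 cells, or 398 CPM, also below every rank4 library of the fit, and rank4 replicate 1 held 0 in 4 cells, which allows up to 196 CPM.

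Arid5a, whose protein binds DNA and stabilises inflammatory messenger RNAs, lies on chromosome 1 from 36307733 to 36324029. Its levels were 469, 450 and 260 CPM in rank1 replicates 2, 3 and 5, and 246, 196, 75.5 and 105 in rank4 replicates 2 to 5. Among the libraries of the fit, the lowest of rank1 lay just above the highest of rank4, an order found with rank1 higher in 19 of 1594 genes (1.19%). The log2 fold change was 1.15 (SE 0.22, edgeR adjusted p = 0.0230), and 1.11 with the block (adjusted p = 0.0136). Arid5a passed in 10 of 19 alternatives, with adjusted p from 0.00276 to 0.998. Outside the fit, rank1 replicate 1 had Arid5a at 91.0 CPM (4 UMIs), below 3 of the 4 rank4 libraries, so that the ranks overlap once it is counted. Rank1 replicate 4 had it at 398 (5 UMIs) and rank4 replicate 1 at 65.3 (1 UMI). It did not pass with DESeq2 (adjusted p = 0.567), without rank1 replicate 2 (0.594), rank1 replicate 5 (0.0794) or rank4 replicate 3 (0.388). Nor did it pass without the covariate (0.998) or with libraries of 10 or more cells (0.997). Within replicates 4 and 5 it was 1.45, but rank1 replicate 5 was the only rank1 library there, too few to judge the call. With limits of 0 on other cell types' genes (0.112) and at 10% mitochondrial UMIs (0.0959) it did not pass either. Rank1 replicate 5 had too few cells for both of these fits, as had rank4 replicate 4 for the limits of 0. Stricter cell limits and missing libraries cannot be told apart in these fits.

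The number of calls moved with single libraries and settings. It was 13 without rank4 replicate 4, and 1 without rank1 replicate 2 or without rank4 replicate 3. The block, in the fit that also leaves out rank4 replicate 4, gave 8 calls of 1664 genes (0.481%): Cebpb, Arid5a, Slc38a2, Neat1 and Crispld2 were higher in rank1, and Hspa1a, Vtn and Ptn lower. All 8 are among the 13 calls made without that library and with no block. Libraries of replicates 2 and 3 deviated together across numbers as well as within them, so pairing by number is not shown. The block is given only as an alternative beside the covariate fit.

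Among the genes nearest the threshold, and not past it in the covariate fit, 3 had higher values in rank1. Slc38a2, a neutral amino acid transporter, had 561, 545 and 455 CPM in rank1 against 256, 326, 352 and 262 in rank4 (log2 0.83, SE 0.20, edgeR adjusted p = 0.122; with the block 0.92, adjusted p = 0.0279). Among the 7 libraries of the fit the ranks of Slc38a2 did not overlap, an order found with rank1 higher in 19 of 1594 genes (1.19%). The histone demethylase gene Kdm6b (1.01, SE 0.25, adjusted p = 0.122) and metallothionein Mt1 (0.66, SE 0.16, adjusted p = 0.122) overlapped between ranks. Kdm6b passed in 2 of 18 alternatives and has an antisense neighbour, Kdm6bos.

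On the lower side, Ptn was at -1.88 (SE 0.43, edgeR adjusted p = 0.0996; with the block -1.53, adjusted p = 0.0136), Vtn at -1.06 (SE 0.29, adjusted p = 0.220; with the block -1.0, adjusted p = 0.0124) and Hspa1a at -0.96 (SE 0.27, adjusted p = 0.278; with the block -1.04, adjusted p = 0.00955). Ptn had 153, 94.8 and 238 CPM in rank1 and 183, 989, 201 and 489 in rank4, so that rank4 replicates 3 and 5 stood apart. Without rank4 replicate 3, Ptn was at -0.49 and Vtn at -0.45 (adjusted p = 1.000 for each). Over the fits that left out 1 library, Ptn ran from -2.39 to -0.49 and Vtn from -1.36 to -0.45, and without rank4 replicate 4 both passed (adjusted p = 8.8e-05 and 0.00221), as did Ptn without rank4 replicate 2 (0.00372). Ptn averaged 10203 and Vtn 13912 CPM in pericytes, and the pericyte marker sum in the smooth muscle cells was also highest in rank4 replicates 3 (8372) and 5 (6735). The part of pericyte RNA in these values was not tested. The myosin light chain Myl12a (-0.84, SE 0.22, adjusted p = 0.197), which overlaps its neighbour Myl12b, and the ribosomal gene Rplp2 (-0.68, SE 0.20, adjusted p = 0.329) completed the list. Myl12a passed in 1 of 18 alternatives and Rplp2 in 3 of 19.

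**Figure D5:**
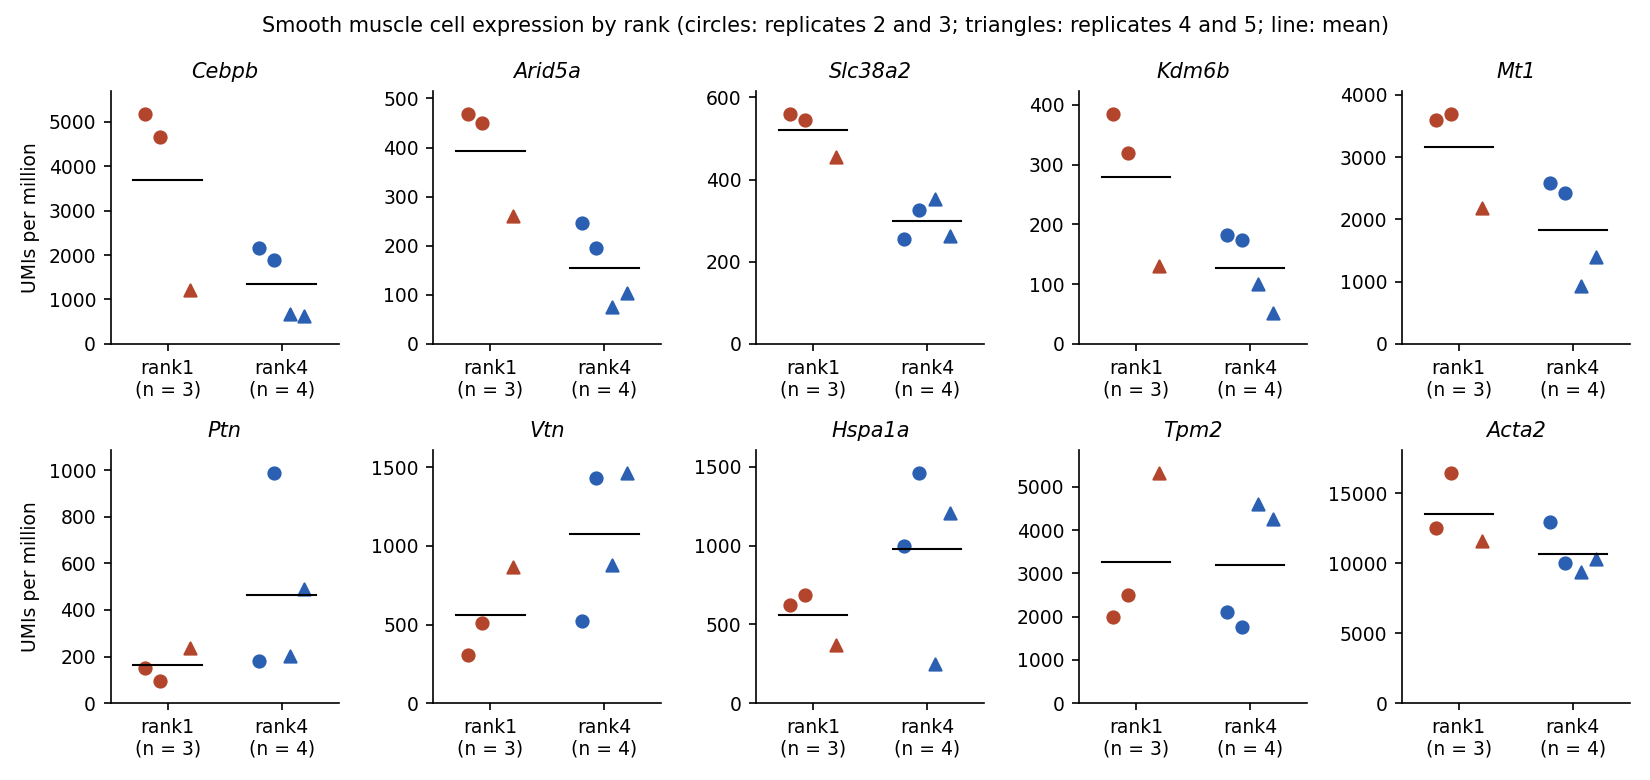
Vertical axes give CPM in summed smooth muscle cells; each point is a library, red for rank1 (n = 3) and blue for rank4 (n = 4), circles for replicates 2 and 3 and triangles for replicates 4 and 5, with a line at each mean. Cebpb is higher in rank1 within circles and within triangles, Arid5a does not overlap between the ranks of these 7 libraries, and Tpm2 differs between circles and triangles more than between ranks.

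The contractile genes did not pass between ranks. Of the 23 listed genes, 17 were tested and not part of the rule. None passed at the adjusted threshold, and 15 had a higher fitted value in rank1 (median log2 fold change 0.23, against -0.01 over all tested genes, of which 782 of 1594 were positive). Tpm2 was at 0.23 (SE 0.16, edgeR adjusted p = 0.914), Crip1 at 0.13 (SE 0.17, adjusted p = 0.952) and the light chain Myl6 at 0.15 (SE 0.15, adjusted p = 0.941). The rule genes, given with no test, differed by 0.30 for Acta2, 0.07 for Tagln, 0.14 for Myh11 and 0.09 for Myl9. Acta2 stood at 12554, 16466 and 11609 CPM in rank1 and 12922, 10007, 9358 and 10312 in rank4, with overlap.

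No gene of the other lists passed in the covariate fit either. In alternatives, the chaperone gene Hspa1a passed in 5 of 19, among them the block (-1.04, edgeR adjusted p = 0.00955), and the glucocorticoid-responsive Mt1 passed with no filter on low counts (0.66, adjusted p = 0.0318). Among 18 tested immediate early genes 16 had a higher value in rank1 (median 0.27), with Junb at 0.28 (SE 0.16, edgeR adjusted p = 0.914) and Dusp1 at 0.31 (SE 0.19, adjusted p = 0.914). Of 8 tested glucocorticoid-responsive genes 5 had a higher value in rank1 (median 0.43), among them Errfi1 at 0.60 (SE 0.19, adjusted p = 0.417) and Cdkn1a at 0.54 (SE 0.18, adjusted p = 0.470). Of 10 tested chaperones 2 had a higher value in rank1 (median -0.31), with Hsp90ab1 at -0.46 (SE 0.18, adjusted p = 0.649) and Hspb1 at -0.28 (SE 0.18, adjusted p = 0.914). Among the receptors, Npy1r was at 0.22 (SE 0.31, adjusted p = 0.961), Ramp1 at 0.36 (SE 0.26, adjusted p = 0.914) and S1pr3 at 0.60 (SE 0.24, adjusted p = 0.643). The mean level of Npy1r ran the other way, at 159 CPM in rank1 and 177 in rank4. For calcium and Notch genes, Pln was at 0.24 (SE 0.21, adjusted p = 0.914), Notch3 at 0.15 (SE 0.20, adjusted p = 0.956) and Nrip2 at -0.45 (SE 0.23, adjusted p = 0.834).

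In both ranks the smooth muscle cells of replicates 2 and 3 differed in many genes from those of replicates 4 and 5, whose matrices were written by another software version. All 4 libraries of the first kind lay above all 3 of the second in 457 of 1594 tested genes (28.7%), and below them in 313 (19.6%), against 1.19% and 1.13% for the 3 rank1 and 4 rank4 libraries. Cnn1 ran from 462 to 676 CPM in the first and from 25.2 to 86.6 in the second, Errfi1 from 995 to 1629 and from 151 to 282, and Dusp1, a phosphatase induced at once by stress, from 1177 to 1826 and from 260 to 332. In the other direction Tpm2 ran from 1766 to 2513 and from 4257 to 5328, and Atp2b1 from 130 to 179 and from 384 to 520. The 8 neuronal markers in the smooth muscle cells moved the same way, from 447 to 674 and from 1863 to 3298, and so did the 6 oligodendrocyte markers, from 83.0 to 315 and from 593 to 823. Atp2b1 averaged 1215 CPM in excitatory neurons, and the part of such RNA in these values was not tested. Of the 8 tested glucocorticoid-responsive genes, 6 were higher in replicates 2 and 3 and 0 in replicates 4 and 5. The small replicate 1 libraries, left out of these counts, carry the version of replicates 2 and 3, but rank1 replicate 1 had Cnn1 at 68.3 CPM (3 UMIs), within the range of replicates 4 and 5, and rank4 replicate 1 at 261 (4 UMIs). Software version and other differences between replicates 2 and 3 and replicates 4 and 5 cannot be told apart, no test was made, and these genes were named after their values were seen.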

How the data were processed

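The deposited files are gene by barcode matrices of raw UMI counts from 10x Genomics libraries. Per the submitters' processing notes the reads were processed with Cell Ranger 4.0.0 on mm10, whereas per the file headers the deposited counts of replicates 1 to 3 come from version 3.1.0 and those of replicates 4 and 5 from 4.0.0. The strand setting of the counting is not given in the sources used here. Gene lists of the versions differ (31053 and 32285 genes), so the 30406 genes shared by ID were used. Gucy1a3 and Gucy1b3 of the lists are Gucy1a1 and Gucy1b1 in the files.

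Cells were chosen by the UMI rule of the report, and no doublet caller was run, so the limits on other cell types' genes were the guard. Of 64362 distinct barcodes 571 occurred in more than 1 library, and 16 smooth muscle barcodes did, none as a smooth muscle cell in both. Counts were summed per library (at least 20 cells) and tested with edgeR 4.0.16 (TMM, quasi-likelihood, Benjamini-Hochberg, threshold 0.05), with DESeq2 1.42.0 as alternative, in R 4.3.3. Shares were tested by exact permutation over libraries (scipy 1.17.1). Levels are CPM, UMIs per 1000000 UMIs of the summed cells, and floors and counting intervals cover counting error only. On simulated counts (1439 genes) the rank fit recovered 75.8% of genes changed by a log2 of 1 and 100% of those changed by 2, with 6 false calls. For the pericyte fit (992 genes) these were 93.6% and 100%, with 7 false calls. Whether these figures hold for the real libraries, whose number of rank calls moved with the setting, was not tested.

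Named genes were the rule's markers, the 5 smallest p in each direction between ranks, up to 4 members of each list by size of change against pericytes, 3 by level, and the 8 largest differences in each direction against pericytes. The members and gene lists were chosen with earlier results of these data known. Same-numbered libraries of the ranks were taken as pairs in the block. Their deviations correlated (r = 0.53, 0.44 and 0.69 for replicates 2, 3 and 5 over 1603 genes). Replicates 2 and 3 correlated to a like degree across numbers (0.51 and 0.49), so these values do not show pairing by number. Gene positions are from GENCODE M21 on GRCm38.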

Additional observations from a re-analysis of the deposited data

How the results depend on the processing

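No share of smooth muscle cells passed between ranks in any setting. The settings with paired replicate numbers, replicates 1 to 3 alone and replicates 4 and 5 alone hold too few libraries to reach 0.05. They could not have passed. With the replicate numbers as pairs (the replicate block) the sign-flip p was 0.688, 0.938 and 0.500 for kept, vascular and mural barcodes, with the mean differences as before. The smallest sign-flip p possible was 0.0625. Leaving out 1 library moved the rank difference from -0.580 to 1.13 percentage points of kept, from -5.40 to 4.50 of vascular and from -16.6 to -0.979 of mural barcodes. Within replicates 4 and 5 it was -0.116 (kept) and -4.22 (vascular), within replicates 1 to 3 it was 4.07 (mural), and for vascular barcodes it was -2.55 at a marker sum of at least 12 and -0.283 with other cell types' sums at 0. With no limits on other cell types, an alternative chosen after seeing the data, the kept difference was 0.624. The 2 rank calls became 0 without the covariate (14 genes at an unadjusted p under 0.05) and 1 with DESeq2. They became 14 with no filter on low counts and 0 at 10 or more cells (20 at an unadjusted p under 0.05). With the replicate block, which also leaves out rank4 replicate 4, there were 8. Without that library and with no block there were 13, these 8 among them. At 40 or more cells there were 17, with other cell types' sums at 0 there were 8, and in replicates 2 and 3 alone 11. Rank1 replicate 5 and rank4 replicate 4 had too few cells for the fits at 40 or more cells and with sums at 0. Rank1 replicate 5 also had too few cells for the fit at 10% mitochondrial UMIs. Haemoglobin genes were among the calls with no filter, at 40 or more cells, with sums at 0 and in replicates 2 and 3. With 1 library left out there were 1 to 13. The 585 pericyte calls became 1229 with no filter, 347 without the block, 361 within rank4, and 463 to 598 with 1 library left out. Log2 values between ranks that turned direction, none of them called, were as follows. At 10 or more cells, Myl9 was -0.0093, Mef2c 0.082, Nr2f2 0.024, Hes1 0.096, Prkar1a -0.11, Id3 -0.097, Sparc 0.034 and Jund -0.026. At 40 or more cells, Klf4 was -0.021, Atp2a2 -0.12, Atp2b1 -0.045, Gucy1b1 -0.013, Pdgfa 0.042 and Itgb1 0.12. At 10% mitochondrial UMIs, Klf4 was -0.013, Atp2a2 -0.25, Atp2b1 -0.021, Pdgfa 0.016 and Itgb1 0.15. At a marker sum of 12, Hspa8 was 0.0056. Without the covariate, Tagln was -0.026, Atp2a2 -0.032, Atp2b1 -0.065, Npy1r -0.074 and Hspa8 0.16. With no filter, Hspa8 was 0.0056. With other cell types' sums at 0, Myh11 was -0.038, Klf4 -0.16, Atp2a2 -0.34, Atp2b1 -0.15, Gucy1b1 -0.13, Pdgfa 0.13, Itgb1 0.20, Jund -0.029 and Hspa8 0.0094. With the replicate block, Ano1 was 0.087, Gucy1b1 -0.012 and Hspa8 0.034. For replicates 2 and 3 alone, Klf4 was -0.020, Atp2a2 -0.12, Atp2b1 -0.043, Gucy1b1 -0.011, Pdgfa 0.044 and Itgb1 0.14. The fit of replicates 4 and 5 alone had rank1 replicate 5 as its only rank1 library, so its count of calls is not given. In it Nrip2 was 0.26, Pln -0.0088, Prkar1a -0.47, Pde3a 0.28, Npy1r -0.49, Id3 -0.25, Sparc 0.081 and Dusp1 -0.27. With 1 library left out the ranges were -0.033 to 0.17 for Tagln, -0.011 to 0.58 for Klf4, -0.12 to 0.24 for Atp2a2, -0.036 to 0.22 for Atp2b1, -0.48 to 0.36 for Ano1, -0.18 to 0.19 for Prkar1a, -0.043 to 0.16 for Gucy1b1, -0.18 to 0.0090 for Pde3a, -0.0040 to 0.36 for Id3, -0.34 to 0.073 for Pdgfa, -0.40 to 0.12 for Itgb1, -0.41 to 0.0042 for Sparc, -0.77 to 0.19 for Thbs1 and -0.15 to 0.13 for Hspa8. Against pericytes, uncalled values turned for Nr2f2 (0.016 with DESeq2, 0.29 with no filter, 0.30 within rank4, -0.26 to 0.11 with 1 library left out), Mef2a (-0.076 without the block, -0.025 at sums of 12, -0.054 within rank1, -0.015 to 0.19 with 1 library left out), Atp2b1 (-0.026 without the block) and S1pr3 (0.083 with no filter, 0.036 within rank1). The cause of these shifts was not tested. Few genes reached 100 UMIs in the smooth muscle cells among channels (0 of 16), dedifferentiation genes (1 of 14) and receptors (3 of 32), so most of these were not tested.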
